A study of Homo sapiens with 18 samples.

Results

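MHC class I genes and peptide loading were measured through 9 of the 62703 genes counted: the heavy chain genes HLA-B, HLA-C, HLA-E and HLA-F, the light chain gene B2M, the transporter genes TAP1 and TAP2, the tapasin gene TAPBP and the regulator gene NLRC5. The members were given as gene symbols and matched to the Ensembl identifiers of the count tables. All 9 were found, and all 9 passed the filter of at least 10 reads in at least 1 of a line's 6 libraries in each of the 3 lines. On hg38, 7 of the 9 lie on chromosome 6, B2M lies on chromosome 15 and NLRC5 on chromosome 16.

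The study asked how the long non-coding RNA NEAT1 shapes gene expression in multiple myeloma, a cancer of plasma cells. Total RNA was sequenced from cultures of 3 established human myeloma cell lines, AMO1, LP1 and H929 (NCI-H929), with 3 libraries for each line and gapmeR. By the labels, gN1E stands for cultures given the NEAT1 gapmeR g#N1_E without a carrier and SCR for those given the scrambled gapmeR g#SCR, both collected at 48 h. GapmeRs are antisense oligonucleotides that lead to cleavage of a paired RNA, so NEAT1 should be low in the libraries labelled gN1E.

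The total counts ranged from 53227560 to 66142827 in AMO1 SCR, from 28061606 to 49784737 in AMO1 gN1E, from 34710995 to 54387667 in H929 SCR and from 52856172 to 59302536 in H929 gN1E. They ranged from 56542997 to 69937229 in LP1 SCR and from 44091209 to 57247024 in LP1 gN1E. Levels are given as CPM, read counts scaled to a common library total with TMM-scaled library sizes, or per kilobase of exon as RPKM where genes are compared with each other. Each value of a line is taken over its 6 libraries, 3 of each gapmeR label.

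NEAT1 went against the gapmeR label in every line. In the libraries labelled AMO1 it stood at 75.7, 78.8 and 90.8 CPM under SCR and at 473, 553 and 517 CPM under gN1E. In those labelled H929 it stood at 79.8, 72.7 and 79.2 CPM under SCR and at 554, 464 and 542 CPM under gN1E. In those labelled LP1 it stood at 135, 173 and 189 CPM under SCR and at 656, 667 and 829 CPM under gN1E. All libraries labelled gN1E were above all those labelled SCR of the same line. The log2 fold changes, gN1E minus SCR, were 2.66 (SE 0.0744) in AMO1, 2.74 (SE 0.0683) in H929 and 2.14 (SE 0.19) in LP1. Their adjusted p-values (edgeR's quasi-likelihood test, Benjamini-Hochberg) were 5.1e-13, 3.11e-14 and 0.0269. In LP1 the adjusted p of the same edgeR test rose when 1 library was left out, to 0.176 for SCR B and to 0.111, 0.0886 and 0.0578 for gN1E A, B and D, within a range of 3.69e-26 to 0.176 over 13 alternatives. The log2 fold change in LP1 ran from 2.00 to 2.25 with 1 library left out. Against these labels, the deposited tables carry names that swap the gapmeRs within every line and swap H929 and LP1. Libraries and directions are given here as labelled.

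The labels of the lines were checked against marker genes. All 8 plasma cell markers had a mean of at least 1 CPM in each line, led by SDC1 at 10660 CPM in AMO1 and 12930 CPM in H929 and by IRF4 at 2041 CPM in LP1. NCI-H929 and LP-1 are both known for a translocation that joins NSD2 and FGFR3 to the immunoglobulin heavy chain locus, and NCI-H929 also for making IgA. FGFR3 averaged 701 ± 41.3 CPM (SD, n = 6) in the libraries labelled LP1, against 1.35 ± 0.109 CPM (SD, n = 6) in those labelled H929 and 0.132 ± 0.0688 CPM (SD, n = 6) in AMO1. NSD2 likewise averaged 1617 CPM in the libraries labelled LP1, 237 CPM in H929 and 185 CPM in AMO1. The heavy chain gene IGHA1 averaged 7746 CPM in AMO1, 8821 CPM in the libraries labelled H929 and 8.12 CPM in those labelled LP1. FGFR3 and NSD2 thus go with the LP1 label and against the H929 label, and IGHA1 goes with the H929 label.

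The other 7 line marks are given as means in the order AMO1, H929 and LP1. They were 1.47, 707 and 0.145 CPM for IGHG1, 10360, 9124 and 6932 CPM for IGKC, 0.572, 14.7 and 6.20 CPM for IGLC2, and 0.191, 0.334 and 1.06 CPM for IGLC3. They were 36.2, 25.6 and 184 CPM for CCND1, 1825, 1607 and 1.59 CPM for CCND2, and 0.0400, 32.55 and 215 CPM for MAF. The light chain gene IGKC thus stood far above IGLC2 and IGLC3 in each line, LP1 included. These 7 marks were not set against what is known of each line. Which line each label holds was not tested, and AMO1, H929 and LP1 stand below for the libraries with that label.

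MHC class I molecules show peptides from inside the cell to cytotoxic T cells and natural killer cells. A heavy chain folds with the light chain beta-2-microglobulin in the endoplasmic reticulum, where tapasin holds it next to the TAP transporter until a peptide from the proteasome binds. Most of these genes carry a shared promoter module, on which NLRC5 acts as the class I transactivator, and interferon raises them. Myeloma cells are plasma cells that secrete large amounts of antibody, and their class I molecules set how T cells and natural killer cells see them.

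The light chain stood above every heavy chain in mean RPKM in each line, and HLA-F was the lowest heavy chain. In AMO1 the order by mean RPKM was B2M (465), HLA-C (282), HLA-B (208), HLA-E (85.3), TAP1 (42.8), TAPBP (42.2), NLRC5 (7.80), HLA-F (6.93) and TAP2 (6.21). In H929 the order was B2M (375), HLA-C (226), HLA-B (159), HLA-E (66.1), TAPBP (49.8), TAP1 (35.3), NLRC5 (6.38), TAP2 (6.22) and HLA-F (4.02). In LP1 the order was B2M (204), HLA-C (196), HLA-E (104), TAPBP (47.9), HLA-B (31.6), TAP1 (15.6), TAP2 (7.48), NLRC5 (2.91) and HLA-F (2.20). HLA-B thus ranked 3 of 9 in AMO1 and H929 and 5 of 9 in LP1, below HLA-E and TAPBP. The libraries of neighbours in this order overlapped for TAP1 with TAPBP, NLRC5 with HLA-F and HLA-F with TAP2 in AMO1, for NLRC5 with TAP2 in H929, and for B2M with HLA-C and NLRC5 with HLA-F in LP1. RPKM divides by all annotated exon bases, 4623 for HLA-B, 2507 for HLA-C and 10357 for TAP2. The RPKM order, and the shares and ratios in RPKM below, thus depend on the annotation. In mean CPM HLA-B stood above HLA-C in AMO1 (961 and 706.5) and H929 (735 and 567). It stood below HLA-C in LP1 (146 and 492). The plot of RPKM by line shows the drop of HLA-B and the spread of each gene.

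**Figure D1:**
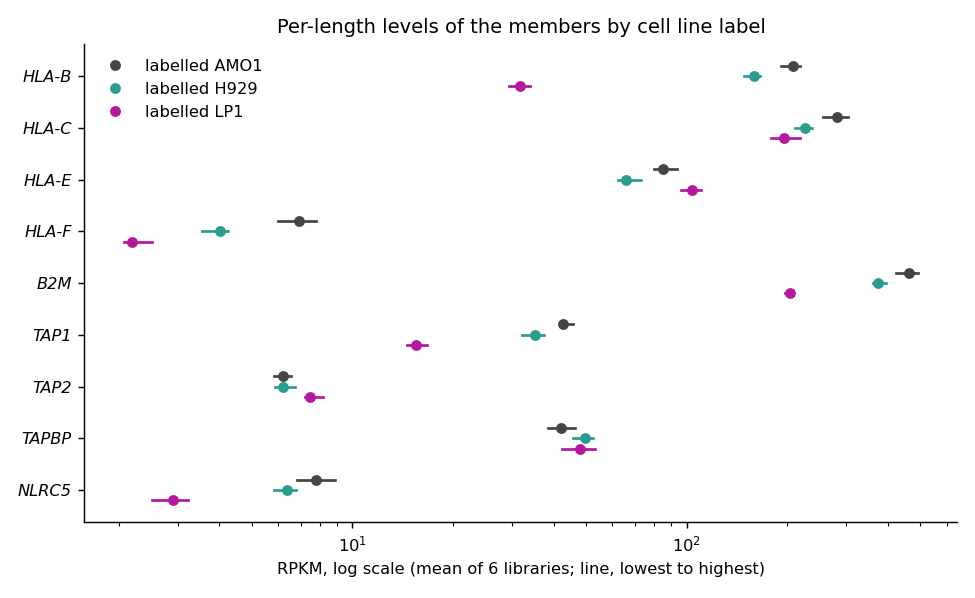
RPKM (CPM per kilobase of exon, log scale) of the 9 members by cell line label. Points are means of 6 libraries and lines run from the lowest to the highest library. HLA-B falls from 208 RPKM in AMO1 and 159 RPKM in H929 to 31.6 RPKM in LP1.

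In mean CPM, 6 of the 9 members were highest in AMO1 and lowest in LP1. Of the 9, 7 were higher and 1 was lower in AMO1 than in H929, where edgeR's quasi-likelihood test called 44.4% of 26436 genes at an adjusted p under 0.05, 21.2% higher and 23.2% lower. Against LP1, 6 were higher and 3 lower in AMO1, where 75.9% of genes were called, 37.9% higher and 37.9% lower. Against LP1, 6 were higher and 2 lower in H929, where 74.6% of genes were called, 38.4% higher and 36.2% lower. With LP1 most genes were called, so the count of members says little beside their sizes. The median log2 difference of the members was 0.31 for AMO1 minus H929, 1.19 for AMO1 minus LP1 and 0.88 for H929 minus LP1, against medians of 0.00, 0.02 and 0.05 over all genes tested. Scaling by total counts alone moved the median of all genes to 0.20 in AMO1 minus LP1 and to 0.24 in H929 minus LP1. It called 11796 genes higher and 8516 lower in AMO1 minus LP1, and 12092 and 7833 in H929 minus LP1. With it TAP2 lost its call in both contrasts and TAPBP in AMO1 minus LP1.

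**Figure D2:**
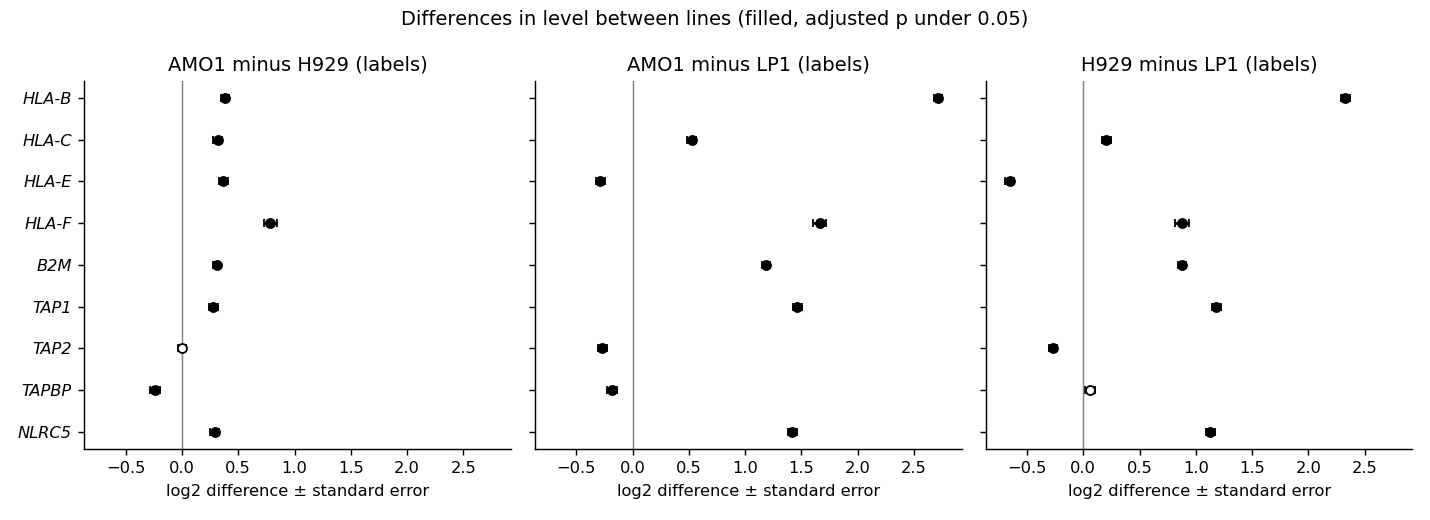
Log2 differences in level between cell line labels for the 9 members, each with its standard error, from the fit of 18 libraries. HLA-B, HLA-F, B2M, TAP1 and NLRC5 lie right of 0 in each contrast with LP1, from 0.88 to 2.72, and HLA-E and TAP2 lie left of 0.

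Promoter sequences are shown for HLA-B, B2M and TAP1, which were low together in LP1, for HLA-C, which was lower there by less, and for TAP2, which was higher there. RefSeq windows of GRCh38.p14 were found for 7 of the 9 members, and not for HLA-E and NLRC5. Each line holds the 250 bases before the start, read 5′ to 3′ on the gene's strand, with motif letters in capitals. The windows are chr6:31357180-31357429 (minus strand), chr6:31272093-31272342 (minus strand), chr15:44711267-44711516 (plus strand), chr6:32853705-32853954 (minus strand, the nearest of 2 windows to the annotated start) and chr6:32838740-32838989 (minus strand).
HLA-B: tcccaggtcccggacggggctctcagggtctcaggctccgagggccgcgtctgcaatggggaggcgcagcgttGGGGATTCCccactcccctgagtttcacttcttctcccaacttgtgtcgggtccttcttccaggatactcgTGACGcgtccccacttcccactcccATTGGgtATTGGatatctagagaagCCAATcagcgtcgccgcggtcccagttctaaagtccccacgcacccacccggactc
HLA-C: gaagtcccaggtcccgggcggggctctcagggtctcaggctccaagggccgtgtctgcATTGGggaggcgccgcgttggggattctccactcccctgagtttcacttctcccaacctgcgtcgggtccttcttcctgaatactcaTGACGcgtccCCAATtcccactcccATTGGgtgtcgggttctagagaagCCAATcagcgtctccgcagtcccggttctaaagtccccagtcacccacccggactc
B2M: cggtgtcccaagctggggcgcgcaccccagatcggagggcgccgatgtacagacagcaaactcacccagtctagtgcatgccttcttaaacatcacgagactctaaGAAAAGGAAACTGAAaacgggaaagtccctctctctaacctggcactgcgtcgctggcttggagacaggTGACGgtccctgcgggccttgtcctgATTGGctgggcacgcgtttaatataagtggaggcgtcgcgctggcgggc
TAP1: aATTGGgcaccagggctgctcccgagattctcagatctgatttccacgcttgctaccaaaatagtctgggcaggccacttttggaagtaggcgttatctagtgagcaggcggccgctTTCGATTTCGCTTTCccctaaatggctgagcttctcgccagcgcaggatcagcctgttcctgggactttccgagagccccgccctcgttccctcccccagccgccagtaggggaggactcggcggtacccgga
TAP2: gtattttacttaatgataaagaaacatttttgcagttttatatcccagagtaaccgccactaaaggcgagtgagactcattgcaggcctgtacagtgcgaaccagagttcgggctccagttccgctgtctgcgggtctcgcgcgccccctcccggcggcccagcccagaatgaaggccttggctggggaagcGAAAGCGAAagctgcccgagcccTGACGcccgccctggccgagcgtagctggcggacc
The letters searched on both strands were CCAAT for the core of NF-Y sites, TGACG for CREB-family sites, GAAANNGAA for sites of interferon-regulatory factors and GGGGATTCC for NF-kappa-B sites. Of 35116 promoter windows of this length, 32.0% hold CCAAT, 21.2% hold TGACG, 6.88% hold GAAANNGAA and 0.253% hold GGGGATTCC. HLA-B has GGGGATTCC at -177, TGACG at -106 and CCAAT letters at -81, -74 and -56, counted from the start. HLA-C has TGACG at -105 and CCAAT letters at -192, -95, -80 and -56. B2M has GAAANNGAA at -144 and -138, which overlap, TGACG at -75 and CCAAT letters at -49. TAP1 has CCAAT letters at -249 and GAAANNGAA at -133 and -127, which overlap. TAP2 has GAAANNGAA at -58 and TGACG at -35. Of the windows not printed, HLA-F has GAAANNGAA at -155 and CCAAT letters at -82 and -57, and TAPBP has overlapping GAAANNGAA at -20 and -14. A match describes letters in the reference and says nothing about binding in these lines.

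The heavy chain HLA-B, a classical chain that presents peptides to T cells, was the member that differed most in the contrasts with LP1. It ranged from 886 to 1014 CPM in AMO1 (median 975), from 687 to 769 CPM in H929 (median 740) and from 136 to 157 CPM in LP1 (median 145). No library of LP1 came near those of AMO1 or H929. The log2 difference was 2.72 (SE 0.0387) for AMO1 minus LP1 and 2.33 (SE 0.0381) for H929 minus LP1, which are 6.56-fold and 5.03-fold. Their adjusted p-values (edgeR's quasi-likelihood test, Benjamini-Hochberg) were 1.16e-34 and 9.29e-33. Replicates of a cell line may be technical, so p-values between lines measure only the spread between these libraries. HLA-B was also higher in AMO1 than in H929, by 0.39 on the log2 scale (SE 0.0362), less than HLA-F, which differed there by 0.79 (SE 0.0587).

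HLA-C, the other classical chain among the members, varied less. Its libraries ran from 642.6 to 763 CPM in AMO1 and from 448 to 546 CPM in LP1, without overlap. Those of H929, from 530.5 to 595 CPM, overlapped with LP1. The log2 difference of HLA-C was 0.52 (SE 0.0414) for AMO1 minus LP1 and 0.21 (SE 0.0413) for H929 minus LP1, the latter 0.40 with total counts as the only scaling. The drop of HLA-B was thus unequal to that of its close relative, and the make-up of the heavy chains differed. HLA-B made up 35.7 ± 0.808% of the summed RPKM of the 4 heavy chains in AMO1 (SD, n = 6), 34.9 ± 0.793% in H929 and 9.48 ± 0.308% in LP1. The summed heavy chain RPKM was 582 ± 32.2 in AMO1, 455 ± 16.7 in H929 and 334 ± 20.2 in LP1 (SD, n = 6).

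HLA-E, which shows leader peptides of other class I chains to receptors of natural killer cells, ran the other way. It ranged from 234 to 274 CPM in AMO1 (median 248.5), from 183 to 213 CPM in H929 (median 185) and from 282 to 322 CPM in LP1 (median 305). LP1 was above both other lines in every library, and H929 was lowest. The log2 difference was -0.29 (SE 0.0397) for AMO1 minus LP1 and -0.65 (SE 0.0399) for H929 minus LP1. With total counts as the only scaling these were -0.10 and -0.46, both still called. HLA-E made up 31.2 ± 0.662% of heavy chain RPKM in LP1 (SD, n = 6), against 14.7 ± 0.826% in AMO1 and 14.5 ± 0.793% in H929. HLA-F, a nonclassical chain at low level, fell in the order AMO1, H929 and LP1, with 25.9 to 33.5, 15.3 to 18.4 and 8.96 to 10.8 CPM.

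The read counts of HLA genes carry limits of their own. Reads that fit several genes were left out by the authors' counting, and HLA genes share sequence and differ between people, so a line whose alleles lie far from the reference may lose reads. This bears on levels between lines, those of HLA-B among them, and less on changes within a line. Its size was not measured for any member. The exons of HLA-B share 32.7% of their bases with 2 other annotated genes on the same strand, those of TAP2 share 19.5% with 1 other gene, and those of the other members share none. In bulk RNA, fewer cells of a type and less RNA per cell cannot be told apart.

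B2M, the light chain shared by all class I molecules, was the most abundant member by mean RPKM in each line. It ranged from 1319 to 1536 CPM in AMO1 (median 1463), from 1128 to 1235 CPM in H929 (median 1168) and from 617 to 651 CPM in LP1 (median 639). The lines did not overlap, in the order AMO1, H929 and LP1. The log2 difference was 1.19 (SE 0.0336) for AMO1 minus LP1, 0.88 (SE 0.0334) for H929 minus LP1 and 0.31 (SE 0.0331) for AMO1 minus H929. Per length, B2M stood at 0.80 of the summed heavy chains in AMO1, 0.82 in H929 and 0.61 in LP1.

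The subunits of the peptide transporter, TAP1 and TAP2, differed in opposite directions in the contrasts with LP1. For AMO1 minus H929 the log2 difference was 0.28 (SE 0.0391) for TAP1 and -0.001 (SE 0.0385) for TAP2. TAP1 ranged from 197.5 to 217 CPM in AMO1 (median 199), from 152 to 177.5 CPM in H929 (median 169) and from 68.9 to 79.1 CPM in LP1 (median 73.55). TAP2 ranged from 60.2 to 68.0 CPM in AMO1 (median 64.5), from 60.9 to 70.0 CPM in H929 (median 63.6) and from 74.8 to 84.5 CPM in LP1 (median 75.8). TAP1 was low in LP1 and TAP2 slightly high there, both without overlap. The log2 difference for AMO1 minus LP1 was 1.46 (SE 0.0402) for TAP1 and -0.27 (SE 0.0384) for TAP2. For H929 minus LP1 it was 1.18 (SE 0.0399) for TAP1 and -0.27 (SE 0.0383) for TAP2. With total counts as the only scaling, TAP2 moved to -0.09 and -0.08, and its adjusted p (edgeR's quasi-likelihood test, Benjamini-Hochberg) to 0.0527 and 0.0841, the highest of 16 alternatives, which began at 4.26e-15 and 2.9e-15. The ratio of TAP1 to TAP2 in RPKM was 6.91 ± 0.560 in AMO1, 5.69 ± 0.448 in H929 and 2.08 ± 0.162 in LP1 (SD, n = 6).

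Tapasin, the TAPBP product that ties empty class I molecules to the transporter, differed little between lines. TAPBP ranged from 255 to 308 CPM in AMO1 (median 276), from 303 to 348 CPM in H929 (median 333) and from 282.5 to 353 CPM in LP1 (median 313). The libraries of the lines overlapped in each pair. The log2 difference was -0.24 (SE 0.0439) for AMO1 minus H929, -0.18 (SE 0.0439) for AMO1 minus LP1 and 0.06 (SE 0.0438) for H929 minus LP1, the last with an adjusted p of 0.223 (edgeR's quasi-likelihood test, Benjamini-Hochberg). Scaled by total counts alone, AMO1 minus LP1 was 0.001 and H929 minus LP1 was 0.25, so these 2 contrasts of TAPBP depend on the scaling.

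Within the lines, the heavy chains, the light chain, the transporter and tapasin did not pass the test between gapmeR labels. The question here is whether class I genes change with NEAT1. In AMO1, 0 of 9 members passed an adjusted p of 0.05 (edgeR's quasi-likelihood test, Benjamini-Hochberg), where 2.06% of 22933 genes did, 1.64% higher and 0.419% lower under gN1E. Limma-voom also called 0 members there, with 337 genes higher and 47 lower. DESeq2 called 1 member, with 456 genes higher and 163 lower. An unadjusted p under 0.05 was found for 2 members and for 2803 of the 22933 genes. With the replicate letter as a block, edgeR called 1 member, NLRC5, and 1394 genes in place of 473. Of the 1394 genes, 776 were higher and 618 lower, in place of 377 and 96. It is not settled that the letter pairs the libraries of AMO1. In H929, 1 of 9 was called, lower under gN1E, where 5.47% of 23499 genes were, 3.7% higher and 1.77% lower. In LP1, 1 of 9 was called, higher under gN1E, where 1.43% of 23165 genes were, 0.656% higher and 0.777% lower. The called member was NLRC5 in both. In H929 2 members, and in LP1 3, had an unadjusted p under 0.05, as did 4156 of 23499 and 3018 of 23165 genes. The balance of higher and lower genes depends on the scaling. With total counts as the only scaling, 309 genes were higher and 295 lower in AMO1, 556 and 743 in H929 (870 and 416 with TMM), and 229 and 130 in LP1 (152 and 180 with TMM).

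The other members did not pass. The median log2 fold change of the 9 was 0.013 in AMO1, -0.0088 in H929 and -0.021 in LP1, against -0.016, -0.0096 and -0.0012 over all genes tested. The labels did not overlap for 2 members in AMO1, where 17.8% of genes behaved so, for 3 in H929, where 22% did, and for 2 in LP1, where 18.1% did. These shares of the members lie near the background of all genes. Besides NLRC5 the members apart were B2M above in AMO1, HLA-E below and TAP2 above in H929, and HLA-C below in LP1. This holds with library sizes scaled within each line. On the CPM printed here, scaled over all 18 libraries, the labels overlap for HLA-E in H929 (182.9 CPM in SCR C, up to 185 CPM under gN1E) and for HLA-C in LP1 (495 CPM in SCR D, 496 CPM in gN1E B). The counts of labels apart leave out the replicate letter, which may or may not pair the libraries of AMO1. On the same CPM, HLA-B, HLA-C, B2M and TAP2 were higher under gN1E in every AMO1 pair. HLA-E, TAPBP and NLRC5 were lower in every pair, and HLA-F and TAP1 went both ways. The share of all genes with such pairs is not given here.

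B2M in AMO1 stood at 1404, 1439 and 1319 CPM under SCR and at 1488, 1518 and 1536 CPM under gN1E, a log2 fold change of 0.13 (SE 0.0513). HLA-E in H929 stood at 211, 213 and 182.9 CPM under SCR and at 182.9, 185 and 185 CPM under gN1E, a log2 fold change of -0.15 (SE 0.0519). HLA-C in LP1 stood at 511, 546 and 495 CPM under SCR and at 455, 496 and 448 CPM under gN1E, a log2 fold change of -0.13 (SE 0.0504). Their adjusted p-values (edgeR's quasi-likelihood test, Benjamini-Hochberg) were 0.295, 0.106 and 0.257. HLA-E in H929 passed with total counts as the only scaling and without SCR C, with adjusted p-values of 0.0181 and 0.00543 in the same edgeR test, within a range of 0.00543 to 0.397 over 13 alternatives. HLA-B, the gene that set the lines apart, had log2 fold changes of 0.09 (SE 0.0534) in AMO1, 0.04 (SE 0.0492) in H929 and -0.03 (SE 0.0507) in LP1. TAPBP in LP1 had a log2 fold change of -0.13 (SE 0.0528), with an adjusted p of 0.267 in the same edgeR test and overlapping labels. TAP1 had log2 fold changes of -0.01 (SE 0.0548), -0.08 (SE 0.0503) and -0.02 (SE 0.0541) in the same order.

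**Figure D3:**
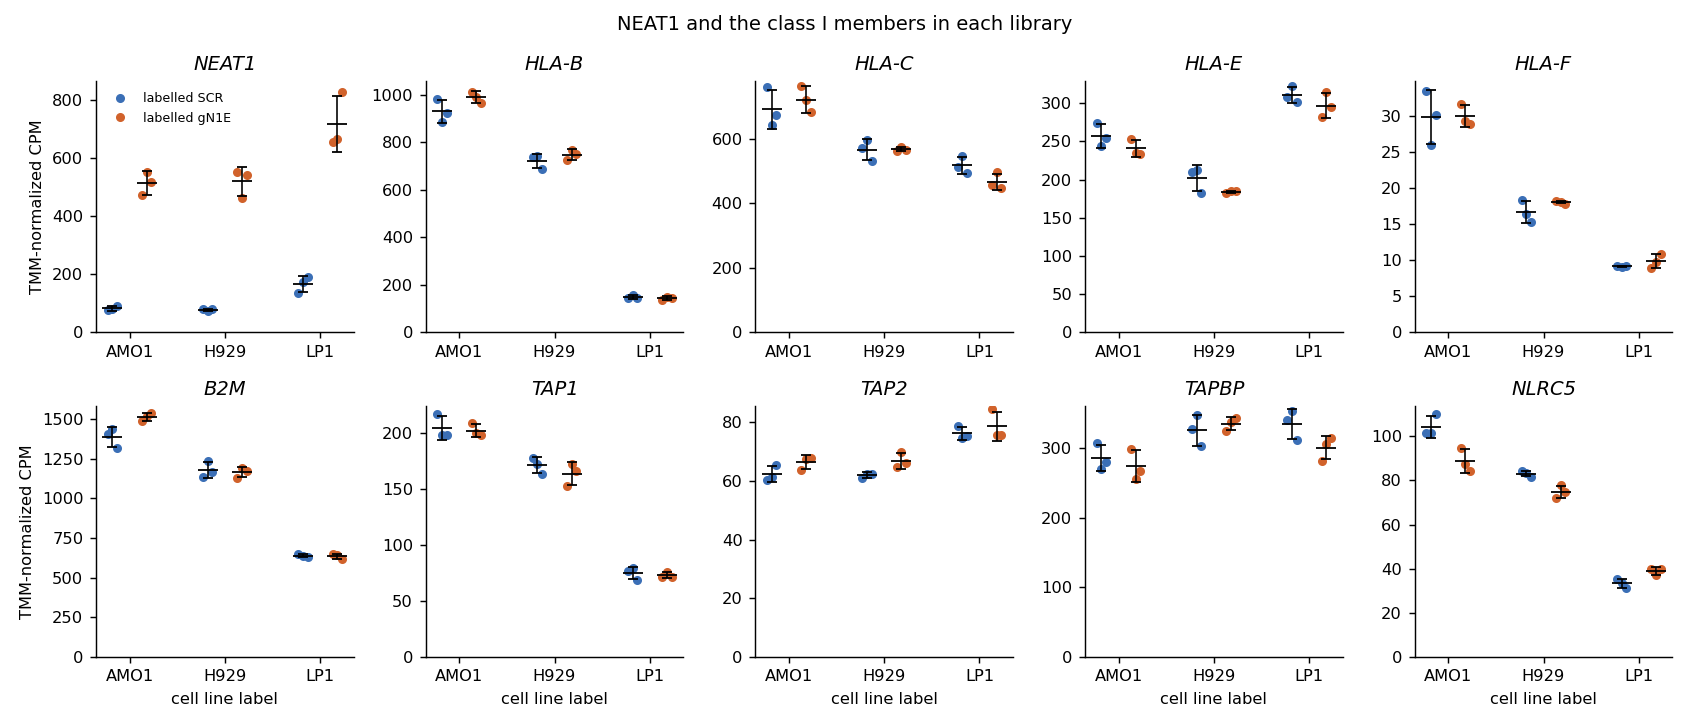
TMM-normalized CPM of NEAT1 and the 9 members in each of 18 libraries, by cell line label and gapmeR label. Points are libraries, the bar is the mean and the whiskers are 1 SD (n = 3). NEAT1 is higher under gN1E in every line, and HLA-B, B2M and TAP1 differ between lines far more than between gapmeR labels.

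**Figure D4:**
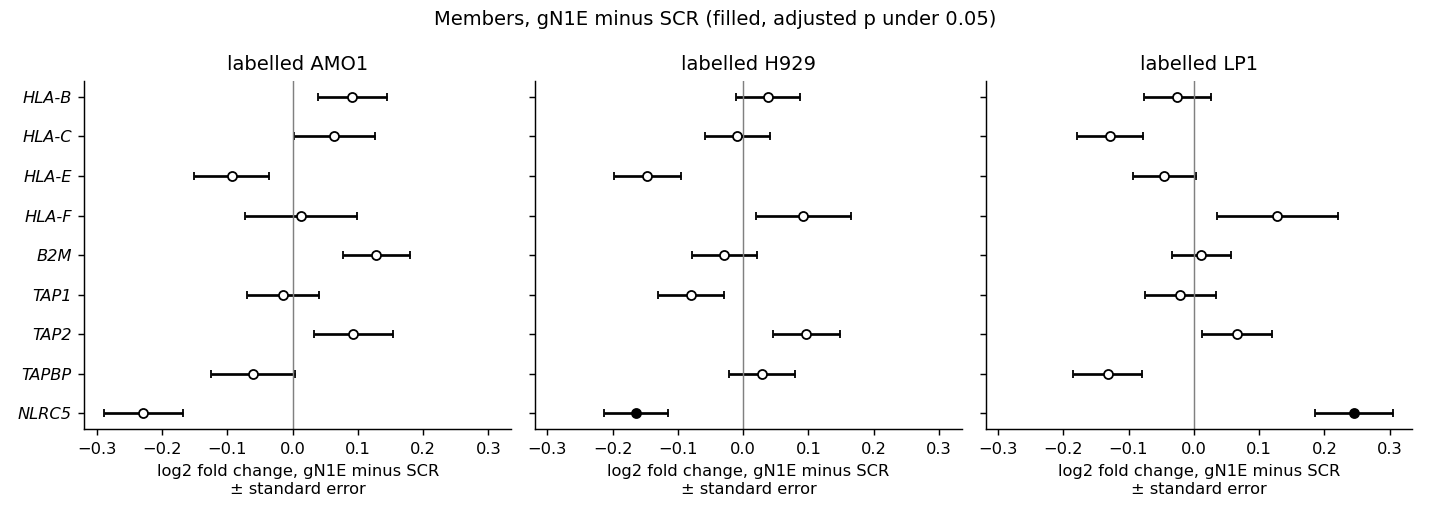
Log2 fold changes, gN1E minus SCR, of the 9 members in each line, with standard errors. Filled points had an adjusted p under 0.05. NLRC5 lies left of 0 in AMO1 (-0.23) and H929 (-0.16) and right of 0 in LP1 (0.25).

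NLRC5, the class I transactivator, had fold changes of opposite sign in the lines. In AMO1 it stood at 101.5, 102 and 110.0 CPM under SCR and at 94.8, 87.3 and 84.4 CPM under gN1E. In H929 it stood at 84.2, 83.35 and 81.7 CPM under SCR and at 72.1, 77.8 and 74.6 CPM under gN1E. In LP1 it stood at 35.4, 33.3 and 31.1 CPM under SCR and at 39.7, 37.0 and 40.0 CPM under gN1E. NLRC5 was thus low in every library of LP1, and under gN1E, where NEAT1 was high, it was lower than under SCR in AMO1 and H929 and higher in LP1. The labels did not overlap in any of the 3 lines, as for 17.8% of all genes in AMO1, 22% in H929 and 18.1% in LP1.

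The fold changes were modest in size. The log2 fold change of NLRC5 was -0.23 (SE 0.0607) in AMO1, -0.16 (SE 0.0496) in H929 and 0.25 (SE 0.0599) in LP1, which are changes of -14.6%, -10.8% and 18.5%. The adjusted p-values (edgeR's quasi-likelihood test, Benjamini-Hochberg) were 0.0578, 0.0493 and 0.0418. Each within-line call was close to the threshold. With the letter of a replicate as a block, the adjusted p of the edgeR test in AMO1 was 0.00184. It ranged from 0.00184 to 0.365 over 13 alternatives, and pairing by letter is not settled there. In H929 the call was lost whichever library was left out, with adjusted p-values of the edgeR test from 0.0518 to 0.202. In LP1 it was lost likewise, with adjusted p-values of the edgeR test from 0.0585 to 0.189. The log2 fold changes of NLRC5 in these fits ran from -0.19 to -0.14 in H929 and from 0.21 to 0.29 in LP1. Replicates of a cell line may be technical, so the p-values measure only the spread between these libraries.

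The difference in effect between lines was tested itself. The log2 fold change of NLRC5 in AMO1 minus that in LP1 was -0.45 (SE 0.0812), with an adjusted p of 0.00195 (edgeR's quasi-likelihood test, Benjamini-Hochberg, over 26436 genes). For H929 minus LP1 it was -0.37 (SE 0.0812), with an adjusted p of 0.012 in the same edgeR test. For AMO1 minus H929 it was -0.08 (SE 0.0796), with an adjusted p of 0.904 in the same edgeR test. Across 17 alternatives for each contrast with LP1, the adjusted p (Benjamini-Hochberg, edgeR or the other tools) ranged from 5.54e-05 to 0.0124 for AMO1 and from 0.000676 to 0.0487 for H929. NLRC5 was the 1 member whose effect differed in each contrast with LP1, where 0.741% of all genes did for AMO1 and 0.874% for H929. For AMO1 minus H929, 0 members and 0% of genes (0 of 26436) had a difference past the threshold. There 1771 genes and 1 member, B2M, had an unadjusted p under 0.05, limma-voom called 0 genes and DESeq2 called 5. The contrasts with LP1 share its libraries and are not independent.

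The level of NLRC5 followed the order of B2M and TAP1 across lines. It ranged from 84.4 to 110.0 CPM in AMO1 (median 98.2), from 72.1 to 84.2 CPM in H929 (median 79.8) and from 31.1 to 40.0 CPM in LP1 (median 36.2). The lines did not overlap. The log2 difference was 1.42 (SE 0.0412) for AMO1 minus LP1, 1.13 (SE 0.041) for H929 minus LP1 and 0.29 (SE 0.0398) for AMO1 minus H929.

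Other genes of the pathway were read from 4 lists. Of 10 promoter and interferon factors, 2 were lower under gN1E in H929 and 0 higher, where 1.77% of all genes were lower and 3.7% higher, and 0 passed in AMO1 or LP1. IRF1, an interferon-induced activator of class I promoters, stood in H929 at 39.9, 38.35 and 36.55 CPM under SCR and at 28.9, 29.6 and 34.8 CPM under gN1E. STAT2, which acts in the type I interferon response, stood there at 126, 122 and 115 CPM under SCR and at 104, 103.5 and 111 CPM under gN1E. In both genes every library labelled gN1E was below every library labelled SCR, as for NLRC5 in that line. Labels were apart, in either direction, for 22% of all genes in H929. The log2 fold changes in H929 were -0.31 (SE 0.0656) for IRF1 and -0.21 (SE 0.0501) for STAT2. The adjusted p-values (edgeR's quasi-likelihood test, Benjamini-Hochberg) were 0.00335 and 0.0107. STAT2 lost its call without SCR A, gN1E A or gN1E B, with adjusted p-values of the edgeR test of 0.122, 0.0505 and 0.0903, within a range of 0.00192 to 0.122 over 13 alternatives. With 1 library left out, its log2 fold change ran from -0.24 to -0.17.

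In the other lines the same factors had smaller values. IRF1 had a log2 fold change of -0.09 (SE 0.0652) in AMO1 and 0.15 (SE 0.0512) in LP1, and STAT2 had -0.07 (SE 0.0551) and -0.03 (SE 0.0568). The effect in H929 minus that in LP1 was -0.43 (SE 0.0888) for IRF1, with an adjusted p of 0.0077 (edgeR's quasi-likelihood test, Benjamini-Hochberg). The subunits of the factor complex on class I promoters, RFX5, RFXAP, RFXANK, NFYA, NFYB and NFYC, did not pass in any line.

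**Figure D5:**
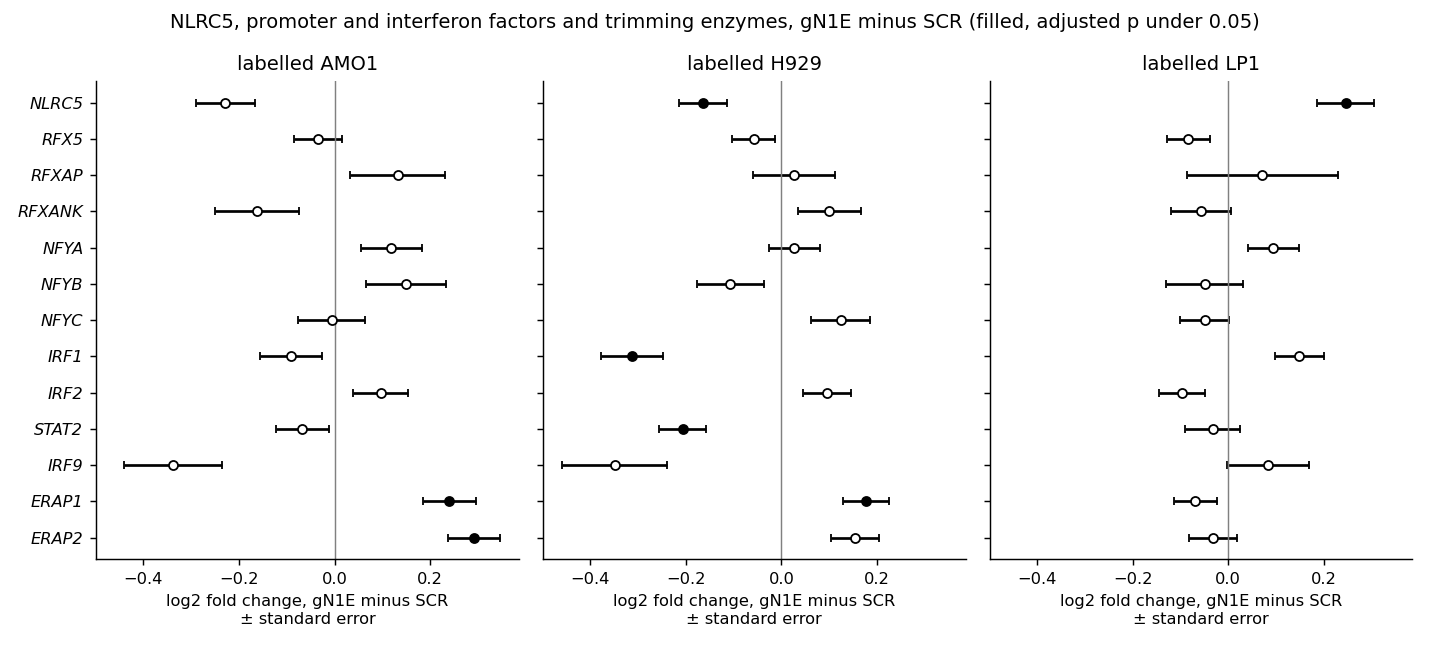
Log2 fold changes, gN1E minus SCR, of NLRC5, 10 promoter and interferon factors, ERAP1 and ERAP2 in each line, with standard errors. Filled points had an adjusted p under 0.05. In H929 NLRC5, IRF1 and STAT2 lie left of 0, from -0.31 to -0.16, and in LP1 NLRC5 alone is filled.

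Of 6 genes for chaperones and peptide trimming, 2 were higher under gN1E in AMO1, where 1.64% of all genes were, and 1 in H929, where 3.7% were. Of the 6, 0 were lower in those lines and 0 passed in LP1. ERAP1 and ERAP2 are aminopeptidases that trim peptides in the endoplasmic reticulum to the length class I molecules hold. ERAP1 in AMO1 stood at 153.5, 159 and 142.5 CPM under SCR and at 174, 182.5 and 180.4 CPM under gN1E, a log2 fold change of 0.24 (SE 0.0553). ERAP2 in AMO1 stood at 116, 118 and 108 CPM under SCR and at 140.1, 139 and 139 CPM under gN1E, a log2 fold change of 0.29 (SE 0.054). ERAP1 in H929 stood at 143, 150.5 and 139 CPM under SCR and at 160, 170.3 and 164 CPM under gN1E, a log2 fold change of 0.18 (SE 0.0471). In each case all libraries labelled gN1E, where NEAT1 was high, were above those labelled SCR. Labels were apart, in either direction, for 17.8% of all genes in AMO1 and 22% in H929. The adjusted p-values (edgeR's quasi-likelihood test, Benjamini-Hochberg) were 0.0216, 0.00332 and 0.0225. The calls of ERAP1 were lost with total counts as the only scaling (adjusted p of 0.0735 in AMO1 and 0.113 in H929 from the same edgeR test) and in 3 of 6 fits with a library left out in each line. The libraries were AMO1 SCR D, gN1E C and gN1E D, with adjusted p-values of the edgeR test of 0.175, 0.131 and 0.151, and H929 SCR A, SCR C and gN1E B, with 0.113, 0.067 and 0.133. With 1 library left out, the log2 fold change of ERAP1 ran from 0.20 to 0.28 in AMO1 and from 0.16 to 0.20 in H929. With total counts as the only scaling it was 0.20 in AMO1 and 0.13 in H929.

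ERAP2 in H929 stood at 104, 114 and 115.5 CPM under SCR and at 118, 129 and 127 CPM under gN1E, a log2 fold change of 0.15 (SE 0.0507). Its adjusted p was 0.0773 (edgeR's quasi-likelihood test, Benjamini-Hochberg), with a range of 0.0388 to 0.382 over 13 alternatives, of which 3 called it. In LP1 the log2 fold change was -0.07 (SE 0.0445) for ERAP1 and -0.03 (SE 0.0499) for ERAP2. The effect in AMO1 minus that in LP1 was 0.33 (SE 0.0684) for ERAP1 and 0.34 (SE 0.0731) for ERAP2, with adjusted p-values of 0.0103 and 0.0126 (edgeR's quasi-likelihood test, Benjamini-Hochberg). For H929 minus LP1 it was 0.28 (SE 0.0684) for ERAP1, with an adjusted p of 0.0378 in the same edgeR test. Of 17 alternatives, this last call was lost in 11, with adjusted p-values from 0.00598 to 0.381 over the 17. The difference was 0.17 with total counts as the only scaling and ran from 0.25 to 0.31 with 1 library left out. The calls for AMO1 minus LP1 were lost in 2 for ERAP1 and 3 for ERAP2. Over the 17 these differences ran from 0.24 to 0.36 for ERAP1 and from 0.26 to 0.37 for ERAP2. The loading factors CALR, CANX, PDIA3 and TAPBPL did not pass in any line.

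Of 5 immunoproteasome genes, 0 passed the edgeR test in any line, and of 5 class I-like and stress ligands 0 of the 5 tested in AMO1, 0 of the 5 in H929 and 0 of the 4 in LP1 did. These counts leave the replicate letter out.

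With the letter as a block in AMO1, where edgeR called 6.08% of genes, 3.38% higher and 2.69% lower, 3 more pathway genes passed. IRF9, a partner of STAT2, was lower, with a log2 fold change of -0.33 (SE 0.0987), the immunoproteasome subunit PSMB10 was lower, with -0.25 (SE 0.0789), and the stress ligand MICB was higher, with 0.18 (SE 0.0573). Their adjusted p-values (edgeR's quasi-likelihood test with the block, Benjamini-Hochberg) were 0.0274, 0.0485 and 0.0452, and these genes were named after their values were seen. Without the block IRF9 had log2 fold changes of -0.34 (SE 0.102) in AMO1 and -0.35 (SE 0.11) in H929. Its adjusted p-values of the edgeR test were 0.113 and 0.0597. The labels of IRF9 did not overlap in either line, as for 17.8% of all genes in AMO1 and 22% in H929.

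Between lines the lists split. PSMB9, a catalytic subunit that interferon induces, averaged 53.6 ± 3.01 CPM in AMO1, 39.2 ± 2.31 CPM in H929 and 27.2 ± 0.463 CPM in LP1 (SD, n = 6), a log2 difference of 0.98 (SE 0.0456) for AMO1 minus LP1. PSME1 and PSME2, subunits of the proteasome activator, were instead highest in LP1. PSME2 averaged 102 ± 3.93 CPM in AMO1, 94.4 ± 4.09 CPM in H929 and 179 ± 8.62 CPM in LP1 (SD, n = 6), a log2 difference of -0.93 (SE 0.0389) for H929 minus LP1. PSME1 had a log2 difference of -0.75 (SE 0.0346) in the same contrast. Peptide supply genes were thus not uniformly low in LP1.

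Among the ligands, HLA-G and HFE were at low levels in every line and lowest in LP1. HLA-G averaged 1.61 ± 0.521 CPM in AMO1, 1.08 ± 0.427 CPM in H929 and 0.111 ± 0.0624 CPM in LP1 (SD, n = 6). HFE averaged 1.50 ± 0.152 CPM in AMO1, 1.04 ± 0.135 CPM in H929 and 0.178 ± 0.0879 CPM in LP1 (SD, n = 6). MR1, which presents vitamin metabolites, differed most in AMO1 minus H929, by -0.43 on the log2 scale (SE 0.0578). Of the 10 factors, 3 were higher and 5 lower in AMO1 than in LP1, where 37.9% of all genes were higher and 37.9% lower. RFXAP and STAT2 were among those lowest in LP1. The log2 differences for AMO1 minus LP1 were 1.61 (SE 0.0856) for RFXAP and 1.22 (SE 0.0404) for STAT2, beside 1.42 for NLRC5. IRF1 was highest in LP1, with 76.8 ± 4.48 CPM against 49.4 ± 2.74 CPM in AMO1 and 34.7 ± 4.56 CPM in H929 (SD, n = 6). Of the 6 genes for chaperones and trimming, 2 were higher and 4 lower in AMO1 than in LP1. The 2 were ERAP2 and TAPBPL, with log2 differences of 0.94 (SE 0.0368) and 0.94 (SE 0.0454). PDIA3 was lower in AMO1 than in H929, with a log2 difference of -0.63 (SE 0.0359).

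The members were also compared within lines, after the mean of each line was subtracted from its 6 libraries. Over the 18 libraries, Pearson's r of log2 CPM was 0.815 for HLA-B with HLA-C, 0.737 for HLA-E with TAP1, 0.732 for HLA-C with TAPBP and 0.567 for HLA-B with TAP1. It was -0.426 for HLA-B with NLRC5, -0.442 for B2M with NLRC5, 0.217 for TAP1 with NLRC5 and -0.313 for TAP1 with TAP2. The lowest of the 36 pairs was HLA-E with TAP2, at -0.689. The gapmeR label was not removed, so these values mix its effect with the spread between libraries. The libraries of a line share its culture and differ in depth, so these are descriptions only.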

How the data were processed

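RNA was sequenced in 18 libraries, grouped by their labels into 3 lines and 2 gapmeRs with 3 libraries each. The authors aligned read pairs to hg38 with STAR 2.7.10a, counted them by strand with featureCounts 1.6.4 on GENCODE release 43, leaving out reads that fit several places or genes, and deposited raw counts for 62703 genes, of which 62639 matched the table of symbols used here. CPM and RPKM were computed here from those counts, with TMM scaling of library sizes. Tests used edgeR 4.0.16 in R 4.3.3 (robust quasi-likelihood fit, Benjamini-Hochberg over all genes tested, threshold 0.05), after dropping genes that reached 10 reads in no library. Each line was fitted on its 6 libraries, and levels and differences between effects on all 18. A two-sided exact permutation test of 3 against 3 libraries cannot give a p under 0.1.

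All members and NEAT1 are named, as are pathway genes past the threshold within a line and at most 3 a list with the largest differences between lines. The promoter and interferon factors are counted without 1 gene of the list as first drawn up, which is not reported here for a reason unrelated to its values. Members and lists were chosen with earlier results of these data known. Libraries with the same replicate letter were compared by their deviations from group means. Their correlations were 0.372, 0.351 and 0.19 in AMO1, which pairs them. Alternatives were limma-voom (limma 3.58.1), DESeq2 1.42.0, RLE size factors, total counts only, other filters, the letter as a block and each library left out. Alternatives for NEAT1, for pathway genes, for pathway lists and for single differences between effects were added after seeing the data. The fits were tested on simulated data. Figures were drawn with matplotlib 3.10.9.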

Additional observations from a re-analysis of the deposited data

Results flagged for a closer look

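The effect of the gapmeR label on NLRC5 differed between lines in a test of the difference itself. The log2 fold change, gN1E minus SCR, in AMO1 minus that in LP1 was -0.45, and in H929 minus that in LP1 it was -0.37. Under gN1E, NLRC5 was lower in 3 of 3 libraries than in all those labelled SCR in AMO1 and in H929, and higher in 3 of 3 in LP1. Labels were likewise apart, in either direction, for 17.8% of all genes in AMO1, 22% in H929 and 18.1% in LP1. The same test set apart the trimming enzymes, with differences of 0.33 for ERAP1 and 0.34 for ERAP2 in AMO1 minus LP1 and of 0.28 for ERAP1 in H929 minus LP1. Of 17 alternatives, these calls were lost in 2, 3 and 11, and those of NLRC5 in 0. It also set apart the interferon factor IRF1 in H929 minus LP1, with a difference of -0.43. All 6 differences use the same 6 libraries labelled LP1. For NEAT1 itself the differences were 0.54 (SE 0.182) for AMO1 minus LP1 and 0.64 (SE 0.182) for H929 minus LP1, and neither passed the test (adjusted p of 0.278 and 0.197, edgeR's quasi-likelihood test, Benjamini-Hochberg). The cause was not tested.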

How the results depend on the processing

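The number of members past the threshold within a line moved between 0, 1 and 2. In AMO1 it was 1 in place of 0 with DESeq2, total counts only, no filter and the replicate block. In H929 it was 0 in place of 1 with limma-voom, RLE size factors, no filter and the replicate block, and 2 with total counts only. In LP1 it was 0 in place of 1 with limma-voom and the replicate block. With 1 library left out it ran from 0 to 1 in AMO1, from 0 to 1 in H929 and from 0 to 0 in LP1. All genes past the threshold numbered 808 with no filter and 1394 with the replicate block in AMO1 (473 as reported), and 512 with DESeq2 and 700 with no filter in LP1 (332). With 1 library left out they ran from 254 to 606 in AMO1, from 701 to 1272 in H929 (1286) and from 87 to 780 in LP1. Total counts only gave 309 higher and 295 lower genes in AMO1, 556 and 743 in H929, and 229 and 130 in LP1. No filter gave 426 and 382 in AMO1 and 256 and 444 in LP1, and the replicate block 776 and 618 in AMO1. The cause was not tested.

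Of the values whose sign turned, 1 had passed the test, TAPBP in AMO1 minus LP1 (-0.18 as reported). With total counts only the log2 fold change became -0.024 for HLA-F in AMO1, -0.0076 for HLA-B and -0.016 for TAPBP in H929, and 0.0025 for HLA-B and 0.0066 for TAP1 in LP1, and the log2 difference of TAPBP in AMO1 minus LP1 became 0.0011. The difference of TAP2 in AMO1 minus H929 became 0.00054 with DESeq2 and 0.00077 with RLE size factors, and ran from -0.019 to 0.015 with 1 library left out. With 1 library left out, fold changes ran from -0.053 to 0.0026 for B2M in H929, from -0.00038 to 0.027 for B2M in LP1, from -0.053 to 0.014 for HLA-B in LP1, from -0.051 to 0.025 for HLA-C in H929, from -0.079 to 0.11 for HLA-F in AMO1, from -0.037 to 0.035 for TAP1 in AMO1, from -0.068 to 0.018 for TAP1 in LP1, from -0.019 to 0.074 for TAPBP in H929 and from -0.090 to 0.0046 for STAT2 in LP1. The cause was not tested.

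NLRC5 kept its direction in all 13 alternatives within each line and passed in 6 of them in AMO1, 3 in H929 and 5 in LP1. The replicate block, used in all lines, gave NLRC5 an adjusted p (edgeR's quasi-likelihood test, Benjamini-Hochberg) of 0.0977 in H929 and 0.0714 in LP1. Libraries with the same letter had correlations of -0.142, -0.0781 and -0.212 in H929 and of 0.311, -0.0834 and -0.153 in LP1. Depth limits the least abundant genes: HLA-G had too few reads to be tested in LP1, and the fold change of HFE there had an SE of 0.597.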

Other observations

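Genes outside the members were ranked by how closely their log2 CPM followed HLA-B or TAP1 over the 18 libraries, among 10754 genes with a symbol and a mean log2 CPM of at least 2. For levels, HLA-B was followed most closely by HLA-DRB1, SLC7A1 and MYB (Pearson's r of 0.998 each), and TAP1 by CYTH1 (0.997), CST3 (0.996) and LAPTM5 (0.996). The libraries fall into 3 lines, so these values of r mostly restate 3 line means. After each line's mean was subtracted, HLA-B was followed by USP11 (0.878), P4HB (0.836) and CARHSP1 (0.836), and TAP1 by AKR7A2 (0.919), ZNF672 (0.867) and LGALS1 (0.854). The highest of so many correlations are large by selection and are given as a description.

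Markers of other cells were mostly low but not absent. Of 3 T cell markers, 1 reached a mean of 1 CPM in each line, CD3E, with 21.9 CPM in AMO1, 8.50 CPM in H929 and 13.2 CPM in LP1. Of 3 monocyte markers, 1 did so in LP1, CSF1R with 6.37 CPM, and 0 in the other lines. Of 3 markers of B cells before the plasma cell stage, 1 did so in LP1, PAX5 with 1.07 CPM. The top stromal marker, COL1A1, stood between 0.930 and 1.15 CPM on average, and the other 2 had no read in any library. Of the epithelial markers, KRT8 stood at 2.15 CPM in AMO1, 12.7 CPM in H929 and 5.27 CPM in LP1. KRT18 stood at 0.660 CPM in AMO1, 0.484 CPM in H929 and 35.2 CPM in LP1, where the member NLRC5 averaged 36.1 CPM. Some markers also differed between gapmeR labels in H929, with log2 fold changes of -0.29 for KRT8, -0.21 for CD38 and 0.22 for SDC1 (adjusted p of 0.0359, 0.00406 and 0.0196, edgeR's quasi-likelihood test, Benjamini-Hochberg). Of the line marks, NSD2 had log2 fold changes of 0.28 in AMO1 and 0.25 in H929, and MAF had -0.24 in H929. Their adjusted p-values in the same edgeR test were 0.00298, 0.000733 and 0.048. In LP1 neither passed, with 0.10 for NSD2 and -0.21 for MAF (adjusted p of 0.324 and 0.0507 in the same edgeR test). CSF1R in LP1 averaged 8.20 CPM under SCR and 4.54 CPM under gN1E, with an adjusted p of 0.155 in the same edgeR test. The lines are cultures of 1 cell type, and the part of these genes in the class I levels was not tested.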
